A study of Rattus norvegicus with 12 samples.

Results

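The data concern 50 genes of mitosis and the G2/M transition in rat kidney tubule cells that were treated with transforming growth factor beta 1 (TGF-beta1) and then with extracellular vesicles. They were taken by name as mitotic kinases and as spindle, kinetochore, condensin and cytokinesis genes, 50 of the 24660 genes in the count table. All 50 passed the filter on low counts and were tested among 14184 genes. The transcription factor gene Foxm1 was left out of the set because its counts were unstable within groups.

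The NRK-52E line, an established wild-type line of rat renal tubular epithelium, was the source of total RNA for 12 sequenced libraries, which form 4 groups of 3. The 3D-EV cells received TGF-beta1 and then vesicles labelled 3D-EVs, and the 2D-EV cells received TGF-beta1 and then vesicles labelled 2D-EVs. The TGF-beta1 cells received TGF-beta1 without vesicles, and the control cells received neither. The study set vesicles from an efficient 3D method beside those from a conventional 2D method in a model of renal fibrosis. Per the labels, all cells grew in DMEM with fetal bovine serum, TGF-beta1 was given for 24 h at 10 µg/ml, a unit that is in doubt, and vesicles were given for 48 h at 500000000 particles/ml. The sources used here do not give the cell of origin of the vesicles, whether TGF-beta1 was still present while the vesicles were, or the time of harvest of the groups without vesicles. The model is 1 cell line, and both vesicle groups carry the TGF-beta1 treatment. Since no label says that the libraries of a group came from separate cultures, the spread behind each p-value is that between libraries and may be technical.

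Dividing cells switch on the genes of mitosis late in the cell cycle. Cyclin B with the kinase Cdk1 drives entry, kinetochores join chromosomes to spindle microtubules, the spindle checkpoint delays anaphase until all are attached, and the anaphase-promoting complex then marks cyclin B and securin for destruction. Many of these genes are repressed in resting cells by the DREAM complex and activated in G2 by B-Myb with the MuvB core and by FoxM1, through promoters that often carry a cell cycle genes homology region (CHR) and CCAAT boxes bound by NF-Y. TGF-beta1 is known to slow the proliferation of many epithelial cells. In bulk RNA, fewer cells of a type, such as cells in G2 or mitosis, and less RNA of a gene per cell cannot be told apart.

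Promoter sequences from RefSeq are shown for Ccnb2 and Cdk1, whose products form a mitotic kinase, for Top2a and Cdc20, whose p-values against control were low, and for Cdc25c and Aurka, whose levels did not pass the test. Each runs over the 150 bases before the annotated start, 5′ to 3′ on the strand of the gene. Capitals mark CHR matches (TTTGAA or TTCGAA) and CCAAT matches, and a match on the other strand reads TTCAAA or ATTGG.
Ccnb2, GRCr8 chr8:79981659-79981808, minus strand: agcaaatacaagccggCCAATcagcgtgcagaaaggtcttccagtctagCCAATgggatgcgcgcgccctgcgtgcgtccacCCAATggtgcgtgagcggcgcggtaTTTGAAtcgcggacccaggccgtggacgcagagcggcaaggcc
Cdk1, GRCr8 chr20:19265143-19265292, plus strand: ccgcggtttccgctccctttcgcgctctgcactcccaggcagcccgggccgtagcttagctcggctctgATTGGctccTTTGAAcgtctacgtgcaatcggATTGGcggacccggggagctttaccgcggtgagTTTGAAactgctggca
Top2a, GRCr8 chr10:84473094-84473243, minus strand: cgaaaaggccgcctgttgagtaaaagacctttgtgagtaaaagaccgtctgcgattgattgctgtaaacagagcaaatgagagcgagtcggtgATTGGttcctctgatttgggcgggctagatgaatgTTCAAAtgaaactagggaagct
Cdc20, GRCr8 chr5:137255800-137255949, minus strand: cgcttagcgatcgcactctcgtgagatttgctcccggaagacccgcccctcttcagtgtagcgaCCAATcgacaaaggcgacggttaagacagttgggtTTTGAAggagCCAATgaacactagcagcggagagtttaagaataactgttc
Cdc25c, GRCr8 chr18:26630293-26630442, minus strand: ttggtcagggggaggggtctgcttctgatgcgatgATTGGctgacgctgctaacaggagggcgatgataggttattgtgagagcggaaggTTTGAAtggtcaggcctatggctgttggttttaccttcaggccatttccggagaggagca
Aurka, GRCr8 chr3:181560770-181560919, minus strand: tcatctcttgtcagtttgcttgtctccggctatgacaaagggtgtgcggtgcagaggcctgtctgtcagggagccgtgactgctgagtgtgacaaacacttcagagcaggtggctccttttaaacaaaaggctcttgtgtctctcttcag
Only matches within the 150 bases printed are counted here, and the full windows of Ccnb2, Cdk1, Top2a and Cdc25c held further ones upstream. The Ccnb2 promoter held 3 CCAAT matches, which began 134, 101 and 68 bases before the start, each 33 bases from the next, and a CHR match followed at 43 bases. The Cdk1 promoter held CCAAT matches at 81 and 49 bases, 32 bases apart, and CHR matches at 72 and 16 bases. Cdc20 had CCAAT matches at 86 and 41 bases and a CHR match at 51 bases, and Top2a had 1 CCAAT match at 57 bases and 1 CHR match at 22 bases. The Cdc25c promoter held the same pair of motifs, at 115 and 60 bases. In the Aurka window neither motif was found, which says only that these letters are not in it.

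The full RefSeq windows run from 250 bases before to 50 bases after the start and were found for 44 of the 50 genes, and both strands were searched. A CHR match lay in 34 of the 44 windows (77.3%), against 19.7% of all 33469 windows in the table. A CCAAT match also lay in 34 of 44 (77.3%), against 37.5% of all windows. Both motifs stood together in 28 of 44 windows (63.6%), against 7.95% of all, and 2 or more CCAAT matches in 22 of 44, against 11.2% of all. Aurka, Bub1, Kif2c and Ncaph had neither motif (9.09%, against 50.7% of all windows). Among genes with a window, a CHR match lay in 23 of the 31 that fell in TGF-beta1 cells against control and in 11 of the 13 that did not pass. The motifs can share an outer base, and a match is a description of letters, not a bound site.

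**Figure D1:**
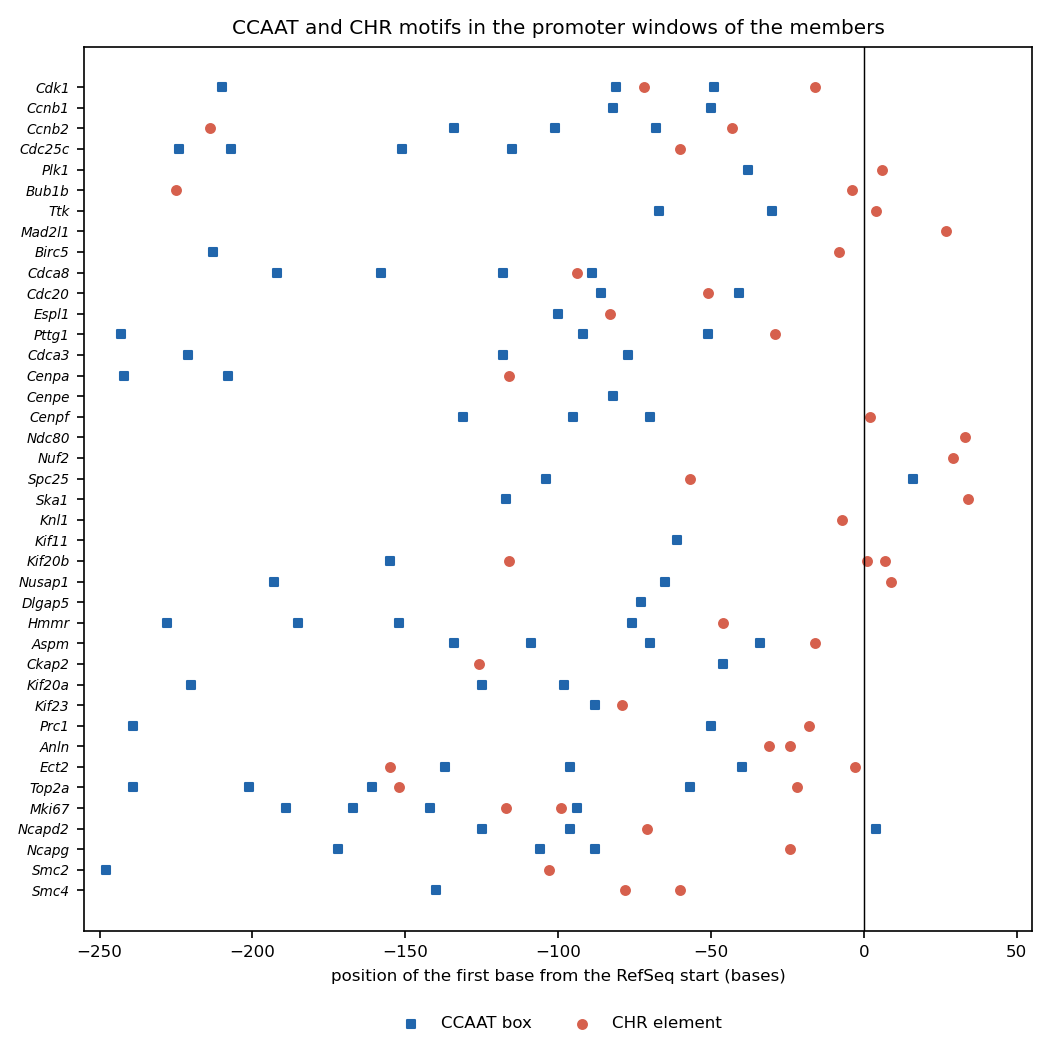
Positions of CCAAT matches (squares) and CHR matches (circles) in the RefSeq promoter windows, in bases from the annotated start (vertical line), with 1 gene per row; the 4 genes whose window held neither motif are not drawn. Of the 77 CCAAT matches, 50 lie within 150 bases before the start, as do 30 of the 44 CHR matches.

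Library totals ran from 32888125 to 39754319 counts, TMM factors from 0.983 to 1.03, and mitochondrial transcripts took 5.31% to 5.58% of counts. The 50 genes had single-library counts from 355 (Cdc25c) to 8658 (Top2a), and 1 count was worth 0.0255 to 0.0305 CPM (counts scaled by library size and TMM factor). The tubular label rests on part of its markers. Krt8 reached 46419 counts and Ggt1, a brush border enzyme, 12568, but Epcam and Pax2 were at 0 in every library, and the highest counts of Krt18, Cdh1, Pax8 and Slc34a1 were 5, 30, 8 and 3. Markers of other cell types were partly present. Of 6 fibroblast and pericyte markers, Mfap5 reached 22297 counts, Col14a1 7239 and Pdgfrb 904, while Dcn, Lum and Pdgfra reached at most 2, 6 and 10. Of 6 immune markers, Cd14 reached 9626 counts, and Ptprc, C1qa, C1qb, Itgam and Tyrobp were at 0 in every library. Of 5 endothelial markers, Egfl7 reached 522 counts and Tek 80, while Pecam1, Cdh5 and Kdr reached at most 11, 15 and 9.

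The mitosis genes were lower in all 3 treated groups than in control cells. Their summed level was 3484 ± 99.9 CPM in 3D-EV cells, 3553 ± 140 CPM in 2D-EV cells, 3587 ± 80.3 CPM in TGF-beta1 cells and 4194 ± 53.8 CPM in control cells (SD, n = 3 each). The highest of the 9 treated libraries summed to 3678 CPM and the lowest control library to 4153 CPM, so the control libraries stood apart. The genes took 0.336% to 0.355% of all counts in 3D-EV cells, 0.340% to 0.366% in 2D-EV cells, 0.350% to 0.364% in TGF-beta1 cells and 0.426% to 0.438% in control cells. For 39 of the 50 genes all 3 control libraries were above the 9 others, an order that 9.69% of all genes tested showed. The lowest group mean was in 3D-EV cells for 30 genes, in 2D-EV cells for 12, in TGF-beta1 cells for 7 and in control cells for 1, and the highest was in control cells for 47. Among the treated groups the summed levels overlapped and genes tended to move together by library. The order of their means over genes is thus not one of separate observations.

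**Figure D2:**
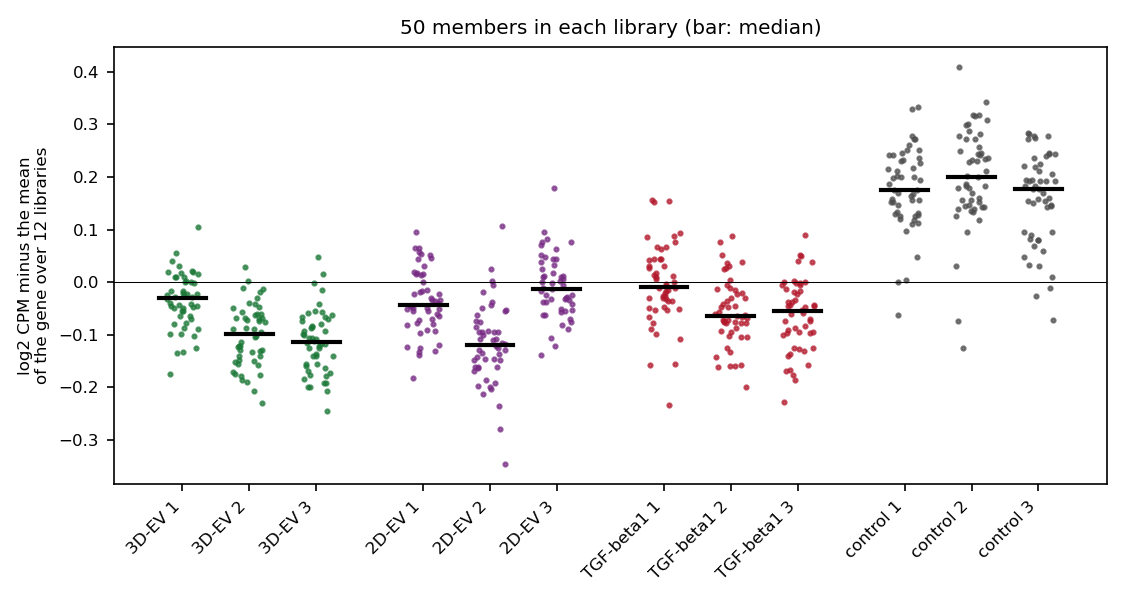
Level of each of the 50 mitosis genes (points) in each of the 12 libraries, as log2 CPM minus the mean of that gene over the 12 libraries; thick bars are medians over the 50 genes. The medians of the 3 control libraries lie above 0 and those of the 9 treated libraries below 0.

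With TGF-beta1 alone most of the set was lower. In edgeR's quasi-likelihood test with Benjamini-Hochberg adjustment over the 14184 genes, 37 of the 50 genes fell in TGF-beta1 cells against control cells, 0 rose and 13 did not pass an adjusted p of 0.05. Over all genes tested, 10.2% fell and 11.8% rose. The falls were shallow. The median log2 fold change over the 50 genes was -0.20, a level 13.2% lower, beside a median of -0.00499 over all genes tested, and the genes that fell were lower by 10.1% to 25.6%. Log2 fold changes ran from -0.43 for Ska1, a kinetochore gene, to 0.05 for Kif23, a cytokinesis motor, and 47 of 50 were below 0, against 50.9% of all genes tested. The levels of the groups were apart for 41 of 50 genes, all lower in TGF-beta1 cells, where 18.9% of all genes tested were apart and lower and 19.1% apart and higher.

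Most of the set was also lower where vesicles had followed TGF-beta1. In 3D-EV cells against control cells 39 genes fell, 0 rose and 11 did not pass, where 10.8% of all genes tested fell and 12.2% rose. The median log2 fold change was -0.26, a level 16.4% lower, and the genes that fell were lower by 11.5% to 27.9%. In 2D-EV cells against control cells 38 genes fell, 0 rose and 12 did not pass, where 8.13% of all genes tested fell and 10.5% rose. The median was -0.24, a level 15.1% lower, and the genes that fell were lower by 10.8% to 23.8%. Group levels were apart and lower for 45 genes in 3D-EV cells, against 18.6% of all genes, and for 42 genes in 2D-EV cells, against 16.1%. They were apart and higher for 0 of the 50 genes in either group, against 19.4% of all genes in 3D-EV cells and 17.2% in 2D-EV cells. The 3 comparisons against control share the same control libraries and so are given side by side, with no test of how alike they are.

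**Figure D3:**
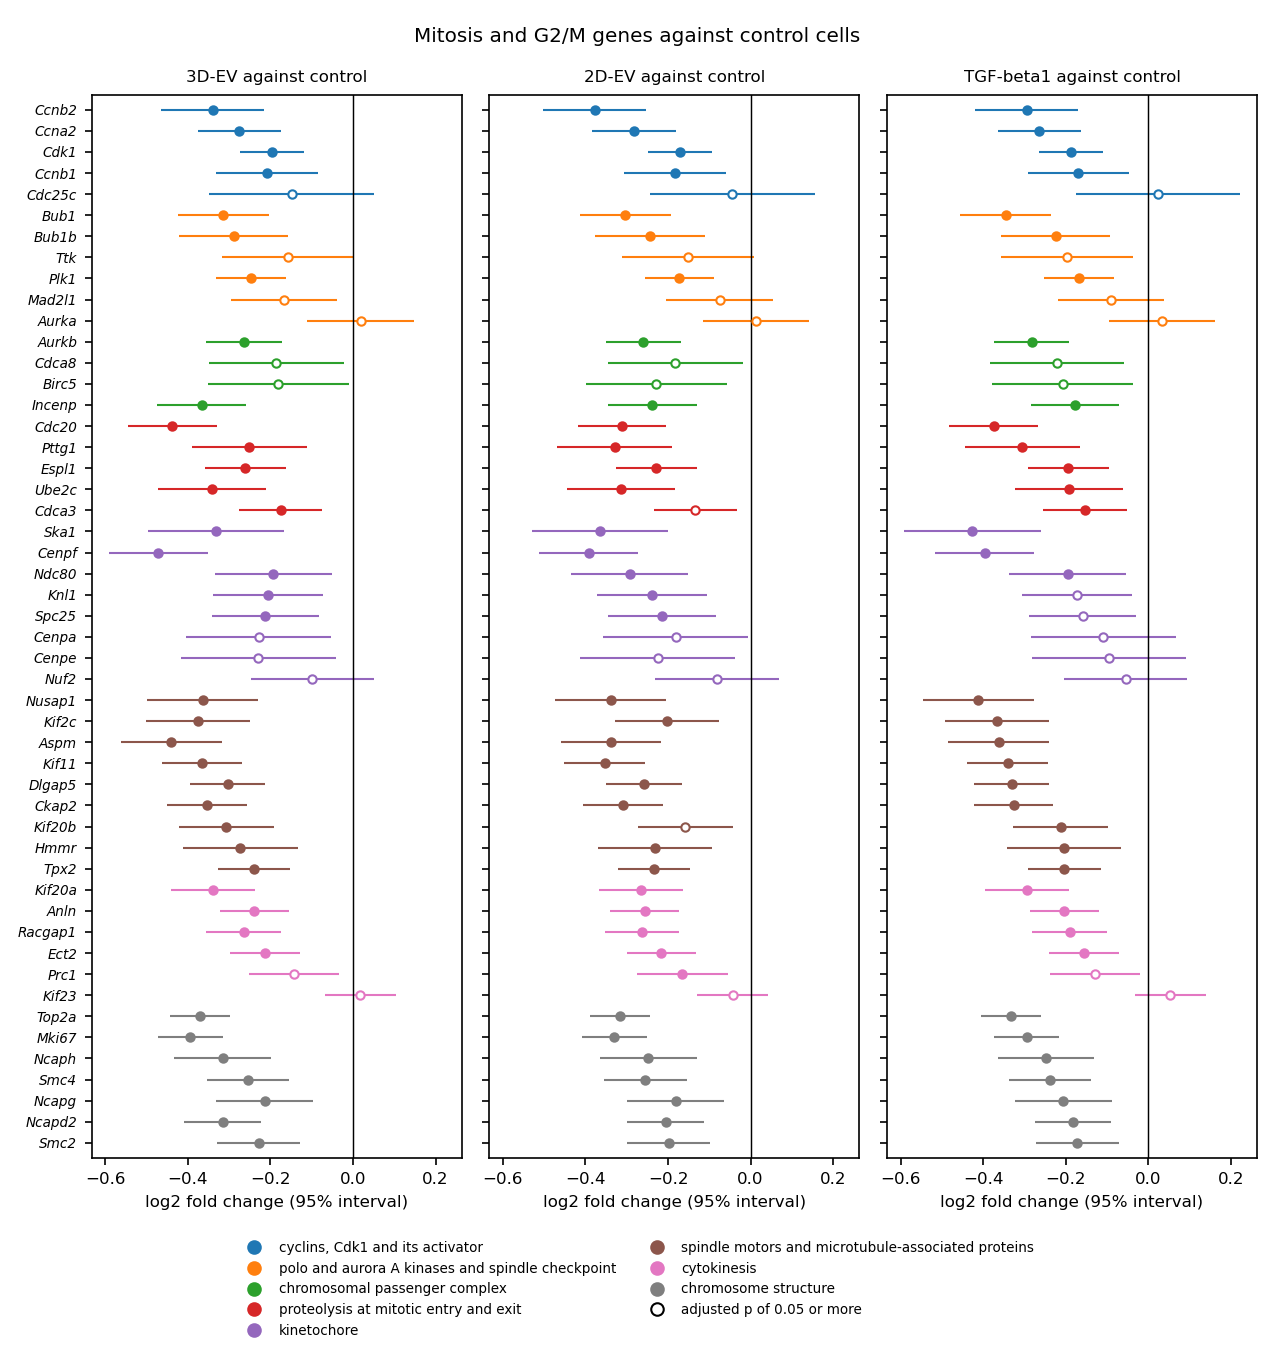
Log2 fold change of each of the 50 mitosis genes against control cells in 3D-EV, 2D-EV and TGF-beta1 cells, with 95% intervals from edgeR; colours give the role of the gene, filled points have an adjusted p below 0.05 and open points do not. Points of 47 genes lie below 0 in TGF-beta1 cells, and those of Aurka and Kif23 lie near 0 in all 3 panels.

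Among the genes that drive entry into mitosis, Cdk1 and the cyclins fell in each treated group and the phosphatase Cdc25c did not pass in any. The counts by role here and below stand beside the shares of all genes tested that fell against control. These shares were 10.8% in 3D-EV cells, 8.13% in 2D-EV cells and 10.2% in TGF-beta1 cells. Cdk1, the mitotic kinase, had 130.1, 131 and 127 CPM in 3D-EV cells, 129, 131 and 135 CPM in 2D-EV cells and 136, 128 and 126 CPM in TGF-beta1 cells, against 152, 149 and 144 CPM in control cells. All control libraries were above all others. Its log2 fold change against control was -0.20 ± 0.04 in 3D-EV cells (adjusted p = 0.0012), -0.17 ± 0.04 in 2D-EV cells (adjusted p = 0.00381) and -0.19 ± 0.04 in TGF-beta1 cells (adjusted p = 0.00159), with the SE after each value. Ccna2, encoding cyclin A2 of S phase and G2, had 115, 115 and 109 CPM in 3D-EV cells, 111, 107 and 119 CPM in 2D-EV cells and 121, 112 and 108 CPM in TGF-beta1 cells, against 137, 139.9 and 132 CPM in control cells. Its groups did not overlap with control either, and its adjusted p was 0.000588 in 3D-EV cells, 0.000633 in 2D-EV cells and 0.00081 in TGF-beta1 cells. Ccnb2, encoding cyclin B2, a Cdk1 partner whose promoter is printed above, had 53.8, 49.9 and 52.7 CPM in 3D-EV cells, 55.9, 45.6 and 50.8 CPM in 2D-EV cells and 54.0, 54.2 and 53.1 CPM in TGF-beta1 cells, against 65.4, 65.7 and 66.7 CPM in control cells. The control libraries varied by a CV of 1.06%, and Ccnb2 fell on the log2 scale by 0.34 in 3D-EV cells (adjusted p = 0.000635), 0.38 in 2D-EV cells (adjusted p = 0.000346) and 0.29 in TGF-beta1 cells (adjusted p = 0.00189). Ccnb1, encoding cyclin B1, had 105, 102 and 98.8 CPM in 3D-EV cells, 105, 93.8 and 112 CPM in 2D-EV cells and 112, 104 and 97.8 CPM in TGF-beta1 cells, against 119, 116 and 118 CPM in control cells. Its control libraries were again the highest, but the treated libraries spread more and its calls were closer to the threshold (adjusted p = 0.0171 in 3D-EV cells, 0.0388 in 2D-EV cells and 0.0485 in TGF-beta1 cells). Cdc25c, which removes inhibitory phosphates from Cdk1, had 13.0, 11.4 and 10.6 CPM in 3D-EV cells, 12.1, 13.5 and 12 CPM in 2D-EV cells and 12.9, 13.2 and 13.3 CPM in TGF-beta1 cells, against 12.5, 11.9 and 14.3 CPM in control cells. These groups overlapped, and the Cdc25c log2 fold change was -0.15 ± 0.09 in 3D-EV cells (adjusted p = 0.29), -0.04 ± 0.09 in 2D-EV cells (adjusted p = 0.808) and 0.02 ± 0.09 in TGF-beta1 cells (adjusted p = 0.893).

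Of 6 genes for the polo and aurora A kinases and the spindle checkpoint, Plk1, Bub1 and Bub1b fell in each treated group and Aurka, Ttk and Mad2l1 passed in none. Bub1, a checkpoint kinase at the kinetochore, had 98.5, 90.2 and 86.3 CPM in 3D-EV cells, 90.2, 89.9 and 97.1 CPM in 2D-EV cells and 94.7, 86.3 and 88.2 CPM in TGF-beta1 cells, against 115, 117 and 110.1 CPM in control cells. Its control libraries stood clear of the rest, and its log2 fold change was -0.31 ± 0.05 in 3D-EV cells (adjusted p = 0.000431), -0.30 ± 0.05 in 2D-EV cells (adjusted p = 0.00074) and -0.35 ± 0.05 in TGF-beta1 cells (adjusted p = 0.000189). Plk1, a kinase of entry, spindle assembly and exit, averaged 85.7 ± 2.71 CPM in 3D-EV cells, 90.3 ± 4.38 CPM in 2D-EV cells, 90.6 ± 1.39 CPM in TGF-beta1 cells and 102 ± 1.56 CPM in control cells (SD, n = 3 each). Bub1b, encoding the checkpoint protein BubR1, fell on the log2 scale by 0.29 in 3D-EV cells (adjusted p = 0.00345), 0.24 in 2D-EV cells (adjusted p = 0.0123) and 0.22 in TGF-beta1 cells (adjusted p = 0.0168). Aurka, the aurora kinase of centrosomes and spindle poles, had 39.7, 37.6 and 40.5 CPM in 3D-EV cells, 37.7, 39.0 and 40.6 CPM in 2D-EV cells and 41.8, 39.0 and 38.2 CPM in TGF-beta1 cells, against 39.3, 35.9 and 41.1 CPM in control cells. The treated groups and control overlapped, and the Aurka log2 fold change was 0.02 ± 0.06 in 3D-EV cells (adjusted p = 0.873), 0.01 ± 0.06 in 2D-EV cells (adjusted p = 0.92) and 0.03 ± 0.06 in TGF-beta1 cells (adjusted p = 0.752). Ttk, encoding the checkpoint kinase Mps1, had log2 fold changes of -0.16 in 3D-EV cells, -0.15 in 2D-EV cells and -0.20 in TGF-beta1 cells. Mad2l1, encoding the checkpoint protein Mad2, had -0.17 in 3D-EV cells, -0.08 in 2D-EV cells and -0.09 in TGF-beta1 cells. The lowest adjusted p of Ttk was 0.0756 in TGF-beta1 cells and that of Mad2l1 was 0.0605 in 3D-EV cells.

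In the chromosomal passenger complex, which corrects faulty attachments and later acts in cytokinesis, 2 of 4 genes fell in each treated group. The kinase gene Aurkb had 50.8, 48.6 and 49.1 CPM in 3D-EV cells, 49.9, 49.8 and 49.2 CPM in 2D-EV cells and 51.4, 46.9 and 48.4 CPM in TGF-beta1 cells, against 59.4, 58.7 and 60.3 CPM in control cells. Every treated library was below every control library, and the log2 fold change was -0.26 ± 0.04 in 3D-EV cells (adjusted p = 0.000397), -0.26 ± 0.04 in 2D-EV cells (adjusted p = 0.000588) and -0.28 ± 0.04 in TGF-beta1 cells (adjusted p = 0.000214). Incenp, the scaffold of the complex, had 40.3, 38.3 and 39.4 CPM in 3D-EV cells, 42.8, 45 and 41.1 CPM in 2D-EV cells and 43.2, 45.5 and 45.9 CPM in TGF-beta1 cells, against 49, 52.9 and 50.2 CPM in control cells. The 3D-EV libraries were the lowest and the control libraries the highest, and Incenp fell on the log2 scale by 0.37 in 3D-EV cells (adjusted p = 0.000102), 0.24 in 2D-EV cells (adjusted p = 0.00368) and 0.18 in TGF-beta1 cells (adjusted p = 0.0191). Birc5, encoding survivin, had log2 fold changes of -0.18 in 3D-EV cells, -0.23 in 2D-EV cells and -0.21 in TGF-beta1 cells, with a lowest adjusted p of 0.0623. Cdca8, encoding borealin, had -0.19 in 3D-EV cells, -0.18 in 2D-EV cells and -0.22 in TGF-beta1 cells, with a lowest adjusted p of 0.0512. The SE of both was 0.08, larger than the 0.04 of Aurkb.

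All 5 genes for proteolysis at mitotic entry and exit fell in 3D-EV and in TGF-beta1 cells, and 4 of them in 2D-EV cells. Cdc20, an activator of the anaphase-promoting complex whose promoter is printed above, had 101, 95 and 95.2 CPM in 3D-EV cells, 102, 101 and 114 CPM in 2D-EV cells and 104, 102 and 98.1 CPM in TGF-beta1 cells, against 136, 135 and 124 CPM in control cells. No treated library reached a control library, and the log2 fold change was -0.44 ± 0.05 in 3D-EV cells (adjusted p = 2.03e-05), -0.31 ± 0.05 in 2D-EV cells (adjusted p = 0.000458) and -0.37 ± 0.05 in TGF-beta1 cells (adjusted p = 7.07e-05). Pttg1, encoding securin, averaged 32.3 ± 1.38 CPM in 3D-EV cells, 30.6 ± 1.59 CPM in 2D-EV cells, 31.1 ± 0.639 CPM in TGF-beta1 cells and 38.4 ± 3.14 CPM in control cells (SD, n = 3 each). Espl1, encoding separase, which cuts cohesin at anaphase, fell on the log2 scale by 0.26 in 3D-EV cells (adjusted p = 0.000755), 0.23 in 2D-EV cells (adjusted p = 0.00269) and 0.19 in TGF-beta1 cells (adjusted p = 0.00672). Ube2c, encoding a ubiquitin-conjugating enzyme of the anaphase-promoting complex, had 38.0, 39.2 and 40.4 CPM in 3D-EV cells, 39.3, 38.1 and 42.6 CPM in 2D-EV cells and 47.7, 41.2 and 41.6 CPM in TGF-beta1 cells, against 50.2, 50.4 and 48.5 CPM in control cells. Ube2c fell by 0.34 in 3D-EV cells (adjusted p = 0.000866), 0.31 in 2D-EV cells (adjusted p = 0.00216) and 0.19 in TGF-beta1 cells (adjusted p = 0.0359). Cdca3, which takes part in destruction of the inhibitor Wee1, had log2 fold changes of -0.18 ± 0.05 in 3D-EV cells (adjusted p = 0.015), -0.13 ± 0.05 in 2D-EV cells (adjusted p = 0.0663) and -0.15 ± 0.05 in TGF-beta1 cells (adjusted p = 0.0307).

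Of 8 kinetochore genes, 5 fell in 3D-EV cells, 5 in 2D-EV cells and 3 in TGF-beta1 cells. Cenpf, a protein of the outer kinetochore, had 54.2, 48.1 and 49.4 CPM in 3D-EV cells, 54.3, 50.3 and 55.8 CPM in 2D-EV cells and 52.3, 54.5 and 53.1 CPM in TGF-beta1 cells, against 67.5, 74.8 and 68.2 CPM in control cells. This was the largest fall of the 50 genes in 3D-EV and in 2D-EV cells, with a log2 fold change of -0.47 ± 0.06 in 3D-EV cells (adjusted p = 2.68e-05), -0.39 ± 0.06 in 2D-EV cells (adjusted p = 0.000178) and -0.40 ± 0.06 in TGF-beta1 cells (adjusted p = 0.000115). Ska1, a microtubule-binding kinetochore protein, had 18.2, 17.3 and 16.8 CPM in 3D-EV cells, 16.6, 15.6 and 19.0 CPM in 2D-EV cells and 15.3, 16.1 and 17.5 CPM in TGF-beta1 cells, against 22.7, 21.8 and 21.3 CPM in control cells. Its fall was the largest of the 50 genes in TGF-beta1 cells, with a log2 fold change of -0.33 ± 0.08 in 3D-EV cells (adjusted p = 0.00587), -0.36 ± 0.08 in 2D-EV cells (adjusted p = 0.00375) and -0.43 ± 0.08 in TGF-beta1 cells (adjusted p = 0.000939). The Ndc80 complex is the main coupler of kinetochores to microtubules. Ndc80 had 46.8, 41.4 and 40.4 CPM in 3D-EV cells, 39.7, 37.9 and 42.5 CPM in 2D-EV cells and 46.2, 41.2 and 41.1 CPM in TGF-beta1 cells, against 47.5, 49.2 and 50.4 CPM in control cells, and fell on the log2 scale by 0.19 in 3D-EV cells (adjusted p = 0.048), 0.29 in 2D-EV cells (adjusted p = 0.00591) and 0.20 in TGF-beta1 cells (adjusted p = 0.0466). Spc25 had log2 fold changes of -0.21 ± 0.06 in 3D-EV cells (adjusted p = 0.0204), -0.21 ± 0.06 in 2D-EV cells (adjusted p = 0.0225) and -0.16 ± 0.06 in TGF-beta1 cells (adjusted p = 0.0783). Nuf2, whose product pairs with Ndc80, had 48.0, 43.3 and 47.4 CPM in 3D-EV cells, 49.4, 42.5 and 48.6 CPM in 2D-EV cells and 47.1, 50.4 and 45.5 CPM in TGF-beta1 cells, against 51.3, 52.0 and 45.2 CPM in control cells. The Nuf2 groups overlapped, and its log2 fold change was -0.10 ± 0.07 in 3D-EV cells (adjusted p = 0.358), -0.08 ± 0.07 in 2D-EV cells (adjusted p = 0.491) and -0.05 ± 0.07 in TGF-beta1 cells (adjusted p = 0.644). Knl1, the platform that recruits checkpoint proteins, had log2 fold changes of -0.21 ± 0.06 in 3D-EV cells (adjusted p = 0.0265), -0.24 ± 0.06 in 2D-EV cells (adjusted p = 0.0146) and -0.17 ± 0.06 in TGF-beta1 cells (adjusted p = 0.0614). The centromeric histone gene Cenpa had -0.23 in 3D-EV cells, -0.18 in 2D-EV cells and -0.11 in TGF-beta1 cells, and the kinesin gene Cenpe had -0.23 in 3D-EV cells, -0.23 in 2D-EV cells and -0.10 in TGF-beta1 cells. Neither passed in any treated group.

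The 9 spindle genes had the lowest median of the 8 roles in 3D-EV cells and in TGF-beta1 cells, with log2 fold changes of -0.35 in 3D-EV cells, -0.26 in 2D-EV cells and -0.33 in TGF-beta1 cells. All 9 fell in 3D-EV cells and in TGF-beta1 cells, and 8 fell in 2D-EV cells. Kif11, the motor that pushes spindle poles apart, had 63.3, 59.7 and 59.9 CPM in 3D-EV cells, 60.1, 58.4 and 65.9 CPM in 2D-EV cells and 62.4, 62.5 and 61.2 CPM in TGF-beta1 cells, against 76.7, 79.7 and 79.2 CPM in control cells. Every treated library was below every control library, and the log2 fold change was -0.37 ± 0.05 in 3D-EV cells (adjusted p = 4.36e-05), -0.35 ± 0.05 in 2D-EV cells (adjusted p = 7.54e-05) and -0.34 ± 0.05 in TGF-beta1 cells (adjusted p = 7.09e-05). Dlgap5, which stabilises kinetochore fibres, had 59.6, 55.9 and 57.0 CPM in 3D-EV cells, 58.3, 58.6 and 61.2 CPM in 2D-EV cells and 56.8, 58.0 and 54.5 CPM in TGF-beta1 cells, against 69.2, 73.7 and 70.1 CPM in control cells. Aspm, a spindle pole protein, averaged 51.4 ± 0.944 CPM in 3D-EV cells, 55.2 ± 3.23 CPM in 2D-EV cells, 54.3 ± 4.39 CPM in TGF-beta1 cells and 69.8 ± 2.48 CPM in control cells (SD, n = 3 each). Both had no overlap with control. Ckap2, a microtubule-associated protein of the spindle, fell on the log2 scale by 0.35 in 3D-EV cells (adjusted p = 5.07e-05), 0.31 in 2D-EV cells (adjusted p = 0.000204) and 0.33 in TGF-beta1 cells (adjusted p = 9.3e-05). Kif2c, a microtubule-depolymerising kinesin, had 33.7, 32.8 and 31.2 CPM in 3D-EV cells, 38.3, 33.6 and 38.3 CPM in 2D-EV cells and 32.2, 34.2 and 31.9 CPM in TGF-beta1 cells, against 42.1, 42.4 and 42.2 CPM in control cells. It fell by 0.38 in 3D-EV cells (adjusted p = 0.000312), 0.20 in 2D-EV cells (adjusted p = 0.0254) and 0.37 in TGF-beta1 cells (adjusted p = 0.000363). Nusap1, a microtubule bundler, fell by 0.36 in 3D-EV cells, 0.34 in 2D-EV cells and 0.41 in TGF-beta1 cells. Tpx2, which activates aurora A at the spindle, fell by 0.24 in 3D-EV cells, 0.23 in 2D-EV cells and 0.20 in TGF-beta1 cells. Hmmr, a spindle assembly factor, fell by 0.27 in 3D-EV cells, 0.23 in 2D-EV cells and 0.20 in TGF-beta1 cells, though its levels in TGF-beta1 and control cells overlapped. Kif20b, a kinesin of late mitosis, had log2 fold changes of -0.31 ± 0.05 in 3D-EV cells (adjusted p = 0.000745), -0.16 ± 0.05 in 2D-EV cells (adjusted p = 0.055) and -0.21 ± 0.05 in TGF-beta1 cells (adjusted p = 0.0106).

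Of the 6 cytokinesis genes, Kif20a, Anln, Racgap1 and Ect2 fell in each treated group. Kif20a, a kinesin of the central spindle, had 134, 122 and 121 CPM in 3D-EV cells, 142, 126 and 129 CPM in 2D-EV cells and 128, 129 and 133 CPM in TGF-beta1 cells, against 156, 160.2 and 161 CPM in control cells. Its groups were apart from control, with a log2 fold change of -0.34 ± 0.05 in 3D-EV cells (adjusted p = 0.000116), -0.27 ± 0.05 in 2D-EV cells (adjusted p = 0.00112) and -0.29 ± 0.05 in TGF-beta1 cells (adjusted p = 0.000386). Anln, a scaffold of the contractile ring, fell on the log2 scale by 0.24 in 3D-EV cells (adjusted p = 0.000424), 0.26 in 2D-EV cells (adjusted p = 0.000305) and 0.20 in TGF-beta1 cells (adjusted p = 0.00147). Ect2, which activates RhoA at the cleavage plane, fell by 0.21 in 3D-EV cells, 0.22 in 2D-EV cells and 0.16 in TGF-beta1 cells. Racgap1 and Kif23 encode the partners of the centralspindlin complex, and the first fell while the other did not pass. Racgap1 had 81.8, 75.2 and 74.4 CPM in 3D-EV cells, 76.8, 74.0 and 80.9 CPM in 2D-EV cells and 81.0, 81.0 and 81.7 CPM in TGF-beta1 cells, against 92.3, 92.9 and 92.9 CPM in control cells. It fell by 0.26 in 3D-EV cells (adjusted p = 0.00034), 0.26 in 2D-EV cells (adjusted p = 0.000457) and 0.19 in TGF-beta1 cells (adjusted p = 0.0042). Kif23 had 124, 125 and 121 CPM in 3D-EV cells, 119, 112 and 123 CPM in 2D-EV cells and 130.2, 127 and 122 CPM in TGF-beta1 cells, against 117, 125 and 123 CPM in control cells. The Kif23 groups overlapped with control, and its log2 fold change was 0.02 ± 0.04 in 3D-EV cells (adjusted p = 0.814), -0.04 ± 0.04 in 2D-EV cells (adjusted p = 0.532) and 0.05 ± 0.04 in TGF-beta1 cells (adjusted p = 0.393). Prc1, which bundles the microtubules of the central spindle, had log2 fold changes of -0.14 ± 0.05 in 3D-EV cells (adjusted p = 0.0593), -0.17 ± 0.05 in 2D-EV cells (adjusted p = 0.0357) and -0.13 ± 0.05 in TGF-beta1 cells (adjusted p = 0.0912).

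**Figure D4:**
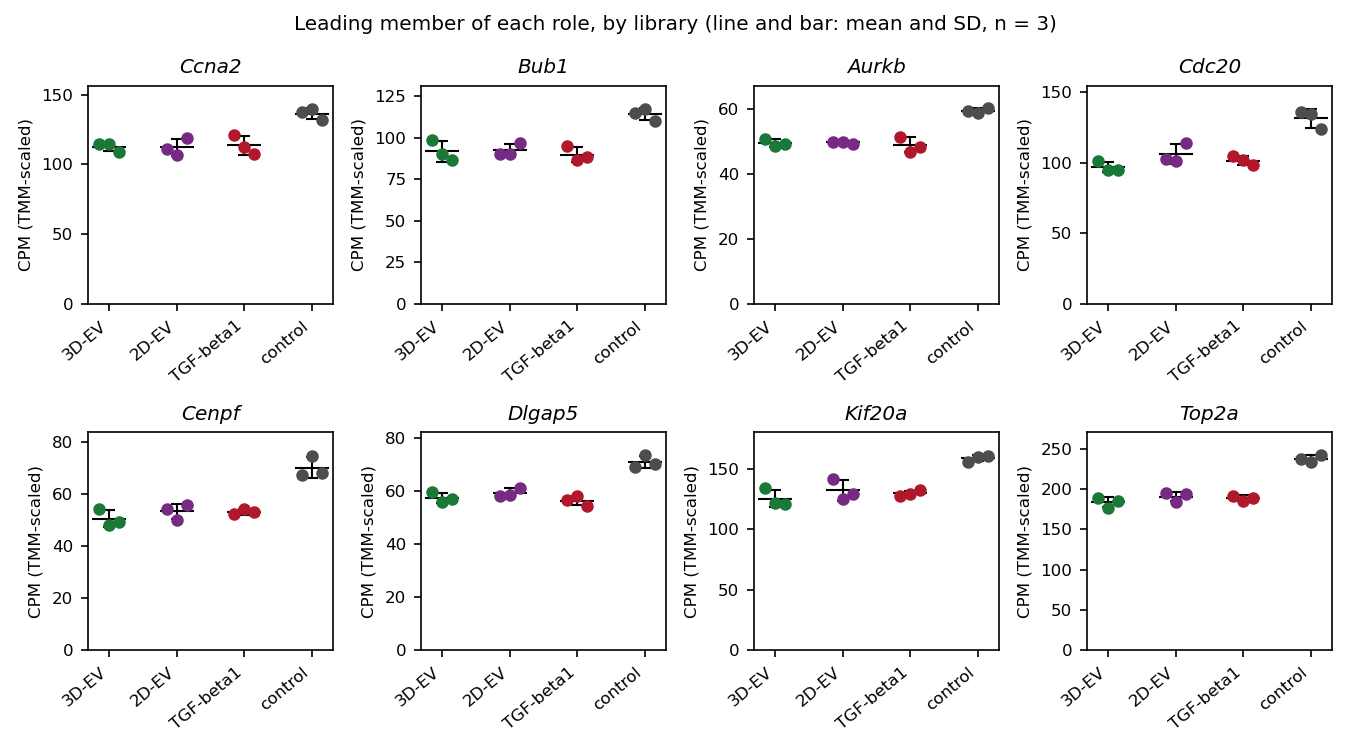
CPM (TMM-scaled, linear axis from 0) of 8 mitosis genes, 1 from each role, by library; horizontal lines and bars are the mean and SD of 3 libraries. Each gene shown is the one of its role with the lowest p-value in TGF-beta1 against control cells. In all 8 panels the 9 treated libraries lie below the 3 control libraries, which this choice favours. Of the 50 genes, 39 had that order and 11 did not.

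All 7 genes of chromosome structure fell in every treated group. Top2a, the topoisomerase that untangles sister chromatids, had 188, 177 and 186 CPM in 3D-EV cells, 194, 184 and 193 CPM in 2D-EV cells and 192, 185 and 189 CPM in TGF-beta1 cells, against 237, 233 and 242 CPM in control cells. It had the lowest p-value of the 50 genes in all 3 comparisons, with a log2 fold change of -0.37 ± 0.03 in 3D-EV cells (adjusted p = 2.17e-06), -0.32 ± 0.03 in 2D-EV cells (adjusted p = 1.41e-05) and -0.33 ± 0.03 in TGF-beta1 cells (adjusted p = 6.21e-06). Mki67, encoding the proliferation marker Ki-67 that coats mitotic chromosomes, had 119, 113 and 116 CPM in 3D-EV cells, 123, 119.6 and 121 CPM in 2D-EV cells and 123, 121 and 128 CPM in TGF-beta1 cells, against 147, 159 and 151 CPM in control cells. The groups were apart from control, and its log2 fold change was -0.39 ± 0.04 in 3D-EV cells (adjusted p = 2.58e-06), -0.33 ± 0.04 in 2D-EV cells (adjusted p = 1.94e-05) and -0.29 ± 0.04 in TGF-beta1 cells (adjusted p = 4.05e-05). Among the condensin genes, whose products compact chromosomes, Smc4 averaged 143 ± 2.28 CPM in 3D-EV cells, 143 ± 10.7 CPM in 2D-EV cells, 145 ± 5.59 CPM in TGF-beta1 cells and 171 ± 3.42 CPM in control cells (SD, n = 3 each). Ncapd2 had 74.2, 67.5 and 68 CPM in 3D-EV cells, 77.7, 74.4 and 74.2 CPM in 2D-EV cells and 75.7, 78.4 and 76.1 CPM in TGF-beta1 cells, against 90.7, 84.8 and 85.5 CPM in control cells, and fell on the log2 scale by 0.32 in 3D-EV cells (adjusted p = 0.000103), 0.21 in 2D-EV cells (adjusted p = 0.00372) and 0.18 in TGF-beta1 cells (adjusted p = 0.00707). Smc2, the partner of Smc4, fell by 0.23 in 3D-EV cells, 0.20 in 2D-EV cells and 0.17 in TGF-beta1 cells. Ncapg fell by 0.21 in 3D-EV cells, 0.18 in 2D-EV cells and 0.21 in TGF-beta1 cells, and Ncaph fell by 0.32 in 3D-EV cells, 0.25 in 2D-EV cells and 0.25 in TGF-beta1 cells.

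For 4 genes that did not pass in any treated group, chosen after their values were seen, the level was set against that of a partner that fell. Since this choice favours a ratio above that of control, the ratios are a description. An exact permutation test on 3 against 3 libraries cannot give a p below 0.1, so it cannot tell whether a ratio changed. None of the 12 ratio comparisons with control passed it (lowest adjusted p = 0.171). The ratio of Kif23 to Racgap1, in CPM, was 1.60 ± 0.0760 in 3D-EV cells, 1.53 ± 0.0207 in 2D-EV cells, 1.56 ± 0.0542 in TGF-beta1 cells and 1.31 ± 0.0402 in control cells (SD, n = 3 each). The ratio of Aurka to its activator Tpx2 was 0.428 ± 0.0148 in 3D-EV cells, 0.424 ± 0.0170 in 2D-EV cells, 0.421 ± 0.0164 in TGF-beta1 cells and 0.357 ± 0.0259 in control cells (SD, n = 3 each). For both pairs every treated group was apart from control. The ratio of Nuf2 to Ndc80 averaged 1.08 in 3D-EV cells, 1.17 in 2D-EV cells, 1.12 in TGF-beta1 cells and 1.01 in control cells, and only 2D-EV cells were apart from control. The ratio of Cdc25c to Cdk1 averaged 0.0899 in 3D-EV cells, 0.0953 in 2D-EV cells, 0.101 in TGF-beta1 cells and 0.0873 in control cells, and its treated groups overlapped with control.

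Some calls rested on few libraries. Of 39, 38 and 37 genes that fell in 3D-EV, 2D-EV and TGF-beta1 cells, 32, 31 and 27 kept the call under all 14 alternatives, which were other scalings, tests, filters and fits and each library left out. In 3D-EV cells, Ndc80 lost its call without control replicate 1, 2 or 3 or without 3D-EV replicate 2 or 3 (adjusted p up to 0.168). Knl1 lost it without control replicate 1 or 2 or 3D-EV replicate 3 (up to 0.114), Spc25 without control replicate 2 or 3D-EV replicate 1 or 3 (up to 0.0963), and Ccnb1 without control replicate 1 or 3D-EV replicate 2 or 3 (up to 0.0658). Cdca3 lost it without control replicate 1 or 2 or 3D-EV replicate 2 (up to 0.0636), Pttg1 without control replicate 1 or 2 (up to 0.056) and Ncapg without control replicate 2 (0.0563). In 2D-EV cells, Ccnb1, Kif2c, Prc1, Knl1, Spc25, Hmmr and Ncapg all lost their call without control replicate 2 and without 2D-EV replicate 2 (up to 0.168). Of these, Ccnb1, Kif2c and Prc1 also lost it without control replicate 1 or 3, Hmmr without control replicate 1, Ncapg without control replicate 3, Ccnb1, Hmmr and Ncapg without 2D-EV replicate 1, and Spc25 and Ncapg without 2D-EV replicate 3.

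In TGF-beta1 cells, Ccnb1, Ube2c and Ndc80 lost their call without control replicate 1, 2 or 3 and without TGF-beta1 replicate 2 or 3 (adjusted p up to 0.196). Hmmr and Cdca3 lost it without control replicate 1 or 2 and without TGF-beta1 replicate 2 or 3 (up to 0.172). Smc2 lost it when control replicate 3, TGF-beta1 replicate 2 or TGF-beta1 replicate 3 was left out (up to 0.071), and Kif20b without TGF-beta1 replicate 3 (0.0585). Bub1b lost it when control replicate 1, control replicate 2 or TGF-beta1 replicate 2 was left out (up to 0.0824), Ncapg without control replicate 2 or TGF-beta1 replicate 2 (up to 0.0698) and Incenp without control replicate 2 or TGF-beta1 replicate 1 (up to 0.0837). Top2a, Mki67, Cdk1, Ccna2, Ccnb2, Bub1, Aurkb, Cdc20, Cenpf, Kif11, Dlgap5 and Kif20a kept their calls in all 3 comparisons under these alternatives.

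The question of the study, whether vesicles alter the TGF-beta1 response and whether 3D and 2D vesicles differ, was asked of the same genes. None of the 50 genes passed in 3D-EV cells against TGF-beta1 cells, in 2D-EV cells against TGF-beta1 cells or in 3D-EV cells against 2D-EV cells. Few genes of any kind did: 0% of all genes tested were lower and 0% higher in 3D-EV cells against TGF-beta1 cells, 0.0282% lower and 0% higher in 2D-EV cells against TGF-beta1 cells, and 0% lower and 0.00705% higher in 3D-EV cells against 2D-EV cells. The lowest adjusted p in edgeR's quasi-likelihood test was 0.511 for 3D-EV against TGF-beta1, 0.542 for 2D-EV against TGF-beta1 and 0.618 for 3D-EV against 2D-EV. DESeq2 and limma-voom also called 0 of the 50 genes in each of these comparisons. A p that misses the threshold does not show that levels were equal, so the intervals are given next.

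In 3D-EV cells against TGF-beta1 cells the median log2 fold change was -0.04, with values from -0.19 for Incenp to 0.09 for Ska1, and 40 of 50 genes were below 0, against 50.1% of all genes tested. In the treated groups the genes tended to move together by library, as given below. The counts of genes in the vesicle comparisons are thus not of 50 separate observations. Summed levels of the groups overlapped, at 3414 to 3598 CPM in 3D-EV cells, 3397 to 3669 CPM in 2D-EV cells and 3530 to 3678 CPM in TGF-beta1 cells. The median 95% interval of a gene ran from -0.15 to 0.07, and the widest bounds over the 50 genes were -0.37 and 0.26. Incenp, Ncapd2, Mki67 and Ube2c had an unadjusted p below 0.05, all lower in 3D-EV cells, where 3.60% of all genes did so in that direction and 3.64% in the other. Incenp had a log2 fold change of -0.19 ± 0.05 (SE; 95% interval -0.30 to -0.08), with an unadjusted p of 0.00212 and an adjusted p of 0.511, and its 3D-EV libraries were all below its TGF-beta1 libraries. Mki67 had -0.10 ± 0.04, Top2a -0.04 ± 0.03, Ccnb1 -0.04 ± 0.06 and Cdk1 -0.01 ± 0.04 (SE). Group levels were apart and lower in 3D-EV cells for 7 genes, against 6.83% of all genes tested, and apart and higher for 0, against 6.80%.

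In 2D-EV cells against TGF-beta1 cells the median log2 fold change was -0.02, with values from -0.13 for Cenpe to 0.16 for Kif2c, and 30 of 50 genes were below 0, against 49.4% of all genes tested. The median 95% interval ran from -0.12 to 0.11, and the widest bounds were -0.32 and 0.29. Kif23 was lower and Kif2c higher at an unadjusted p below 0.05, beside 3.64% of all genes lower and 3.46% higher. Kif2c had 0.16 ± 0.06 (SE; 95% interval 0.04 to 0.29; adjusted p = 0.542), and its libraries overlapped. Top2a had 0.02 ± 0.03, Mki67 -0.04 ± 0.04, Cdk1 0.02 ± 0.04 and Ccnb1 -0.01 ± 0.06 (SE). Racgap1 was apart and lower and Dlgap5 apart and higher in 2D-EV cells, 1 gene of 50 each way, against 6.23% and 6.13% of all genes tested.

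In 3D-EV cells against 2D-EV cells the median log2 fold change was -0.03, with values from -0.17 for Kif2c to 0.10 for Ndc80, and 36 of 50 genes were below 0, against 50.3% of all genes tested. The median 95% interval ran from -0.14 to 0.09, and the widest bounds were -0.30 and 0.24. Kif2c, Kif20b, Incenp, Ncapd2 and Cdc20 had an unadjusted p below 0.05, all lower in 3D-EV cells, beside 3.59% of all genes in that direction and 3.31% in the other. Kif2c had -0.17 ± 0.06 (SE; 95% interval -0.30 to -0.05; adjusted p = 0.618), and Cdc20 -0.13 ± 0.05 (SE; 95% interval -0.23 to -0.02; adjusted p = 0.675). Top2a had -0.06 ± 0.03, Mki67 -0.06 ± 0.04, Cdk1 -0.02 ± 0.04 and Ccnb1 -0.03 ± 0.06 (SE). Group levels were apart and lower in 3D-EV cells for 7 genes, against 5.68% of all genes tested, and apart and higher for 0, against 5.67%. The 3 vesicle comparisons share libraries with each other and with the comparisons against control, so a low or high library enters several of them.

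**Figure D5:**
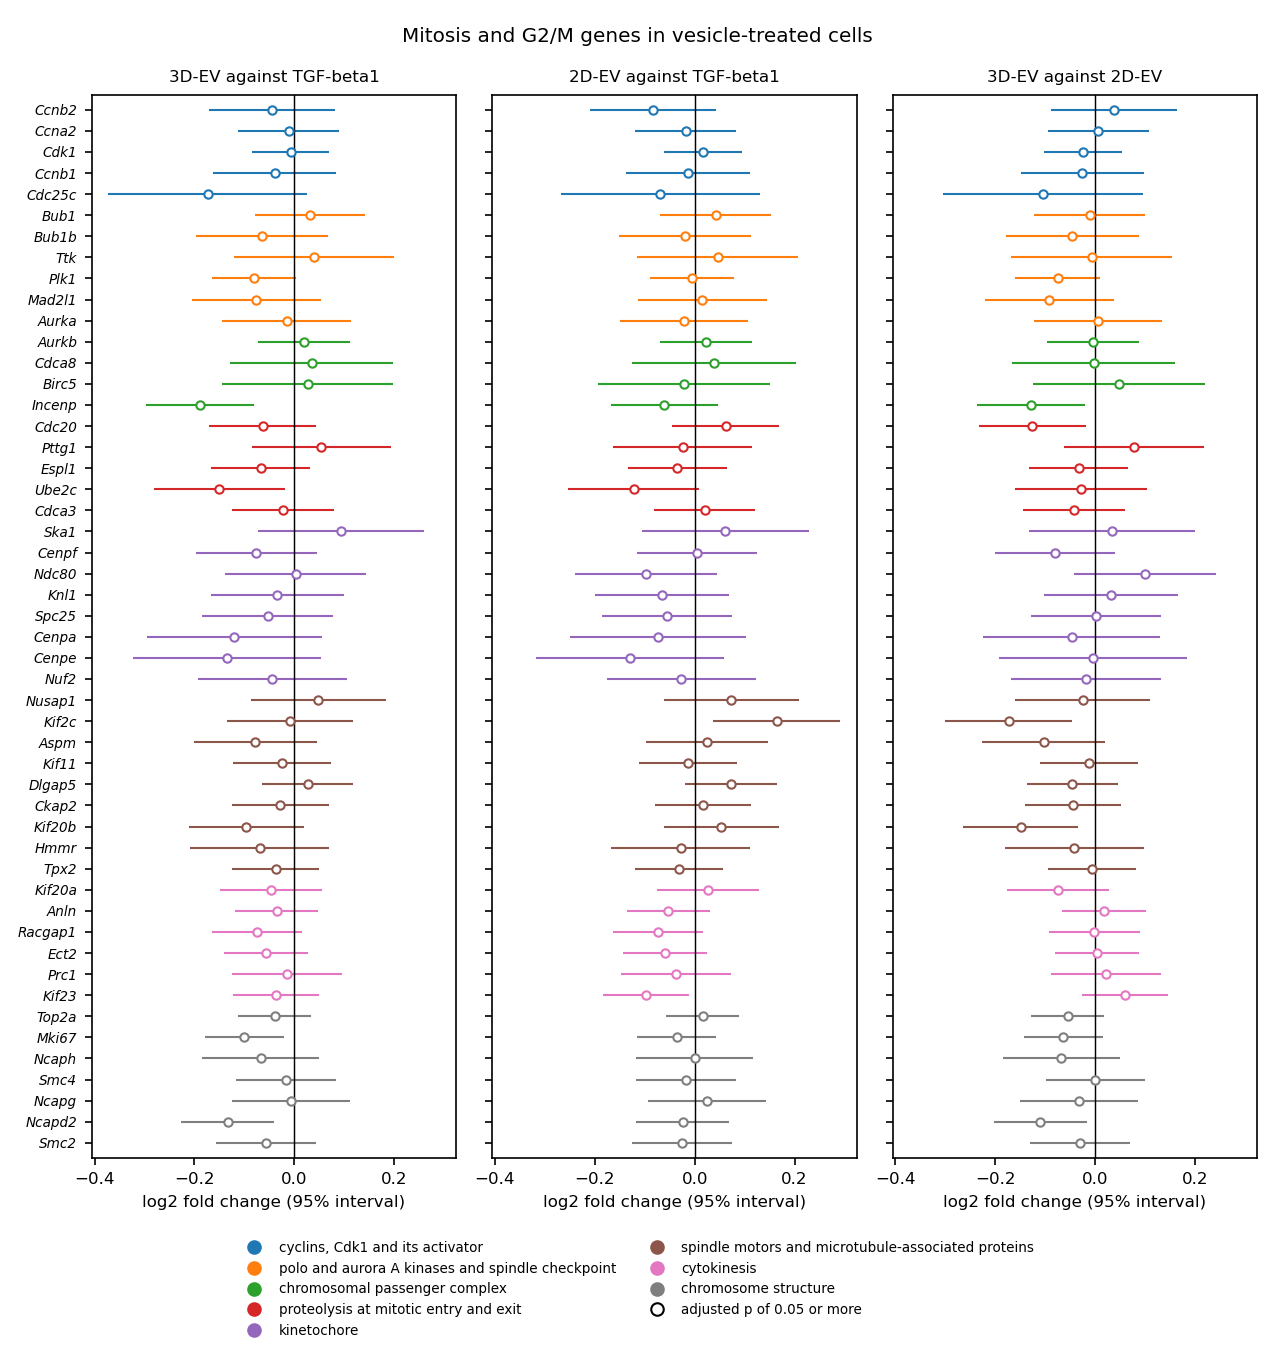
Log2 fold change of each of the 50 mitosis genes in 3D-EV against TGF-beta1 cells, 2D-EV against TGF-beta1 cells and 3D-EV against 2D-EV cells, with 95% intervals from edgeR; all points are open because no adjusted p was below 0.05. Points range from -0.19 to 0.16 and most intervals cross 0.

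Within groups, levels differed by library. In 3D-EV cells, replicate 1 had the highest level of 39 genes and the lowest of 1, while replicates 2 and 3 had the lowest of 22 and 27 genes. In 2D-EV cells, replicate 2 had the lowest level of 37 genes, and replicate 3 the highest of 29. In TGF-beta1 cells replicate 1 had the highest level of 30 genes, and in control cells replicate 2 had the highest of 24. The median CV over the 50 genes was 3.37% in 3D-EV cells, 5.35% in 2D-EV cells, 3.89% in TGF-beta1 cells and 3.20% in control cells, beside 4.14%, 4.60%, 4.04% and 4.03% in the same groups for the 7774 genes of similar level. Without 2D-EV replicate 2 the median log2 fold change was 0.01 in 2D-EV against TGF-beta1 cells and -0.06 in 3D-EV against 2D-EV cells, and without 2D-EV replicate 3 it was 0.00 in 3D-EV against 2D-EV cells.

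Foxm1, encoding a transcription factor that activates many of these genes, had 3, 485 and 447 counts in 3D-EV cells, 528, 488 and 0 counts in 2D-EV cells, 1, 526 and 583 counts in TGF-beta1 cells and 607, 656 and 590 counts in control cells. It was thus at 3 counts or fewer in 1 library of each treated group and in none of control, and no test passed (adjusted p = 0.577 in 3D-EV cells, 0.653 in 2D-EV cells and 0.666 in TGF-beta1 cells against control). Those 3 libraries, 3D-EV replicate 1, 2D-EV replicate 3 and TGF-beta1 replicate 1, were the ones with the highest level of 39, 29 and 30 of the 50 mitosis genes in their group. That overlap was seen after the fact and was not tested. Whether the all-or-none counts of Foxm1 come from expression or from the counting was not tested either.

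Genes of neighbouring cell cycle steps were counted from lists chosen with earlier results of these data known. Of 68 other mitosis genes tested, 35 fell in 3D-EV cells, 29 in 2D-EV cells and 29 in TGF-beta1 cells against control, and 0 rose. This stands against 10.8% of all genes tested that fell and 12.2% that rose in 3D-EV cells, 8.13% and 10.5% in 2D-EV cells and 10.2% and 11.8% in TGF-beta1 cells. Psrc1, a spindle gene, fell by 0.52 ± 0.05 (SE) on the log2 scale in TGF-beta1 cells (adjusted p = 6.19e-06), and Cit, encoding citron kinase of cytokinesis, by 0.73 ± 0.08 in 3D-EV cells (adjusted p = 2.1e-05). Wee1, a kinase that restrains Cdk1, fell by 0.40 in 3D-EV cells, 0.37 in 2D-EV cells and 0.44 in TGF-beta1 cells, and Lmnb1, encoding lamin B1, by 0.38 in 3D-EV cells and 0.32 in 2D-EV cells. Of 46 DNA replication genes, 21 fell in 3D-EV cells, 15 in 2D-EV cells and 16 in TGF-beta1 cells, and 0 rose, beside 10.8%, 8.13% and 10.2% of all genes that fell in these groups. Tk1, encoding thymidine kinase, fell by 0.41 in 3D-EV cells, 0.31 in 2D-EV cells and 0.32 in TGF-beta1 cells, and Mcm3, a subunit of the replicative helicase, by 0.28 in 3D-EV cells, 0.30 in 2D-EV cells and 0.24 in TGF-beta1 cells.

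Of 22 DREAM and E2F regulators tested, 2 rose and 5 fell in 3D-EV cells, 1 rose and 4 fell in 2D-EV cells, and 1 rose and 5 fell in TGF-beta1 cells. Over all genes tested, 12.2% rose and 10.8% fell in 3D-EV cells, 10.5% rose and 8.13% fell in 2D-EV cells, and 11.8% rose and 10.2% fell in TGF-beta1 cells. Rb1, encoding the retinoblastoma protein, rose against control, with log2 fold changes of 0.38 ± 0.06 in 3D-EV cells (adjusted p = 0.000536), 0.20 ± 0.06 in 2D-EV cells (adjusted p = 0.0404) and 0.24 ± 0.06 in TGF-beta1 cells (adjusted p = 0.0119). Rbl2, encoding the DREAM pocket protein p130, fell by 0.26 in 3D-EV cells (adjusted p = 0.00758), 0.24 in 2D-EV cells (adjusted p = 0.0167) and 0.25 in TGF-beta1 cells (adjusted p = 0.0107). Lin37, a MuvB subunit, rose by 0.25 and Rbl1, encoding p107, fell by 0.29 in 3D-EV cells. E2f2 fell by 0.56 in 2D-EV cells, and E2f5 by 0.29 in TGF-beta1 cells. Of 10 tested genes for CDK inhibitors, D cyclins and the kinases Cdk2, Cdk4 and Cdk6, 4 fell and 0 rose in each treated group. Of all genes tested, 10.8% fell and 12.2% rose in 3D-EV cells and 8.13% fell and 10.5% rose in 2D-EV cells. In TGF-beta1 cells 10.2% of all genes fell and 11.8% rose. Cdkn2c, encoding p18, fell by 0.43 in 3D-EV cells (adjusted p = 8.68e-05), 0.40 in 2D-EV cells (adjusted p = 0.00019) and 0.43 in TGF-beta1 cells (adjusted p = 7.41e-05), and Cdkn1b, encoding p27, fell by 0.17 in 3D-EV cells (adjusted p = 0.00453), 0.29 in 2D-EV cells (adjusted p = 0.000115) and 0.21 in TGF-beta1 cells (adjusted p = 0.00129). None of the genes in these 4 lists passed in the 3 vesicle comparisons.

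Some markers of cell types also moved with the treated groups. The summed level of 13 tubular epithelium markers was 1462 to 1521 CPM in 3D-EV cells, 1476 to 1513 CPM in 2D-EV cells, 1497 to 1560 CPM in TGF-beta1 cells and 1190.0 to 1219 CPM in control cells. Most of this sum is Krt8, encoding keratin 8 of simple epithelia, and Ggt1, and these were the 2 of 8 tested markers that rose in each treated group. Of all genes tested, 12.2% rose and 10.8% fell in 3D-EV cells, and 10.5% rose and 8.13% fell in 2D-EV cells. In TGF-beta1 cells 11.8% of all genes rose and 10.2% fell. Krt8 averaged 1158 ± 21.9 CPM in 3D-EV cells, 1177 ± 19.1 CPM in 2D-EV cells, 1215 ± 41.6 CPM in TGF-beta1 cells and 1013 ± 6.96 CPM in control cells (SD, n = 3 each). Ggt1 averaged 314 ± 9.47 CPM in 3D-EV cells, 304 ± 4.58 CPM in 2D-EV cells, 305 ± 10.9 CPM in TGF-beta1 cells and 165 ± 7.30 CPM in control cells (SD, n = 3 each). Of the other 6 tested markers, 0 rose, Cdh1 fell in 3D-EV cells and Aqp1 fell in TGF-beta1 cells. The Cdh1 call rests on low counts, 6, 9 and 2 in 3D-EV cells against 14, 22 and 30 in control cells. In each group 4 of the 8 had a log2 fold change below 0. The median log2 fold change of the 8 was -0.07 in 3D-EV cells, 0.05 in 2D-EV cells and 0.00 in TGF-beta1 cells. The sum of 6 fibroblast and pericyte markers was 721 to 760.1 CPM in 3D-EV cells, 698 to 709.9 CPM in 2D-EV cells, 695 to 714 CPM in TGF-beta1 cells and 739.8 to 787 CPM in control cells. The sum of 6 immune markers, which is Cd14 with the other 5 at 0, was 243 to 245 CPM in 3D-EV cells, 218 to 229.8 CPM in 2D-EV cells, 244 to 251 CPM in TGF-beta1 cells and 177 to 192 CPM in control cells. The sum of 5 endothelial markers was 14.9 to 17.0 CPM in 3D-EV cells, 15.4 to 16.6 CPM in 2D-EV cells, 14.8 to 15.9 CPM in TGF-beta1 cells and 12 to 13.0 CPM in control cells. In each treated group Col14a1 fell and Cd14 and Egfl7 rose against control, and Pdgfrb rose in 3D-EV cells. Their part in the lower level of the mitosis genes was not tested.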

How the data were processed

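The deposited values are whole-number counts per gene, which the authors did not normalize, for 24660 genes; a check showed each library's own table to equal its column of the joint table, and the number of unused columns was 0. Per the submitters' processing notes, fastp, HISAT2, StringTie and DESeq2 were used with the rat build mRatBN7.2. The sources used here give neither versions nor strand handling nor counting settings, so genes with near-identical copies or overlapping neighbours are uncertain.

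The counts were fitted with edgeR 4.0.16 (R 4.3.3) in 1 model of the 4 group means over all 12 libraries, with TMM scaling. The filter was filterByExpr by group, minimum count 10, which left 14184 genes. Each of 6 contrasts was tested by quasi-likelihood, adjusted over all genes tested by the Benjamini-Hochberg method, with a threshold of 0.05. The code was tested on simulated data. CPM carry the TMM factor but no gene length, so levels are not compared between genes. Pairs of libraries within a group differed by 6.82 to 10.9 times the counting variance. For 18 pairs of same-numbered libraries, residuals correlated by -0.067 to 0.045, so replicate numbers did not serve as pairs. The alternatives were DESeq2 1.42.0, limma-voom (limma 3.58.1), other scalings and filters, a fit of only the groups compared, a replicate block, and each library left out.

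The 50 genes and the other lists were chosen with earlier results of these data known. Per-library values are given for up to 3 genes per role with the smallest p among those called, for Top2a, Mki67, Cdk1 and Ccnb1, for genes at the ends of the vesicle comparisons, and, outside this rule and after seeing values, for Cdc25c, Aurka, Nuf2, Kif23 and Foxm1. All 50 symbols matched the RefSeq gene table, and 44 the promoter table, whose build GRCr8 is not that of the counts. Nek2, E2f1 and Krt19 were not analysed here.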

Additional observations from a re-analysis of the deposited data

How the results depend on the processing

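Under the other scalings, tests, filters and fits, the medians kept their sign, and the number of genes that fell against control was 38 to 46 in 3D-EV cells, 35 to 42 in 2D-EV cells and 34 to 43 in TGF-beta1 cells. Ccnb1 lost its call in TGF-beta1 cells with DESeq2-type size factors. With the replicate block, Ndc80 in 3D-EV cells, Ncapg in 2D-EV cells and Ccnb1, Ube2c, Ndc80 and Hmmr in TGF-beta1 cells lost theirs. In the fit of only the groups compared, Ndc80 in 3D-EV cells, Ccnb1, Spc25 and Ncapg in 2D-EV cells and Cdca3 in TGF-beta1 cells lost theirs. With library totals alone, the median log2 fold change of the 50 genes was -0.32 in 3D-EV cells and -0.26 in TGF-beta1 cells against control; the median of all genes tested was then -0.06 in both, so part of that move is the scaling itself. Without TGF-beta1 replicate 1 the median in TGF-beta1 cells against control was -0.24. With 1 library left out, the number of genes that fell against control was 33 to 40 in 3D-EV cells, 31 to 37 in 2D-EV cells and 29 to 38 in TGF-beta1 cells, with medians of -0.28 to -0.24, -0.26 to -0.20 and -0.24 to -0.19 in these groups. Left-out medians were -0.07 to -0.02 in 3D-EV against TGF-beta1 cells, -0.04 to 0.01 in 2D-EV against TGF-beta1 cells and -0.06 to 0.00 in 3D-EV against 2D-EV cells, so the sign of both comparisons with 2D-EV cells depends on 1 library. No gene was called higher against control, or either way in a vesicle comparison, under any alternative. The replicate numbers did not pair the samples, and with the replicate block 38 genes fell in 3D-EV cells, 37 in 2D-EV cells and 34 in TGF-beta1 cells. Residual correlations with libraries of other groups were averaged by replicate number. For 5 of the 12 libraries that mean was highest for their own number. DESeq2 called 42 genes lower in 3D-EV cells, 41 in 2D-EV cells and 40 in TGF-beta1 cells against control. The share of all genes called under each alternative is not given here. The counts under alternatives thus describe how stable the calls were and are not set against other genes. Of the values under alternatives of genes that fell in the main fit, 1503 kept the call, 93 lost it and 0 reversed direction. Genes that did not pass in the main fit are not in this count. With 3 libraries a group and SE of 0.03 to 0.09, small vesicle effects could not be detected at this depth and replication. The intervals given are not adjusted for the number of genes tested. Genes whose interval left out 0, such as Incenp in 3D-EV against TGF-beta1 cells, did not pass either.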
